A study of Mus musculus with 6 samples.

Results

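Type I interferon stimulated genes were followed in splenic germinal centre B cells as a fixed list of 36 symbols, from the RNA sensor Ddx58 to the antiviral effector Mx1. All 36 were found in the deposited table of 23412 genes, and all 36 passed the filter on low counts, among 18767 genes tested. Type I interferons bind a receptor made of Ifnar1 and Ifnar2, whose kinases Jak1 and Tyk2 pass the signal on by phosphorylation. A transcription factor complex that holds Stat2 and Irf9 then binds the interferon stimulated response element, a short motif near the start of many antiviral genes. In B cells a low tonic level of such genes is usual, and virus or nucleic acid sensing raises it.

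Both groups of mice carried 1 copy of Cg1-cre, which drives Cre recombinase in B cells that enter the germinal centre. Controls had no transgene besides, written Cg1-cre(+/-) in the labels and DAF-tg (+/+) in the file header. DAF-TM mice were Cg1-cre(+/-);DAF-TM(fl/fl), with a Cre-dependent cassette for decay accelerating factor, an inhibitor of complement at the cell surface, at both Rosa26 alleles. All mice had received sheep red blood cells intraperitoneally, and cells positive for B220, GL7 and Fas were sorted on day 10. The sources used here name no strain, age or sex, nor do they tell whether mice were pooled.

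There were 3 control libraries and 3 columns labelled DAF-TM, of which the second and the third were identical in all 23412 rows. As these columns hold the same values, the pair entered as 1 sample, DAF-TM library 2, and the comparison is of 3 control with 2 DAF-TM libraries. To which of the 2 samples the values belong is not stated. Total counts ran from 7257339 to 12783965. Cd55, the mouse gene of decay accelerating factor, stood at 23.5 to 34.4 normalised CPM (counts scaled to the size of the library) in the controls and at 713 and 726 in DAF-TM libraries 1 and 2. All 14 germinal centre B cell markers found in the table were present at 25.8 CPM or more on average in both groups, Fas at 266 and 221. DAF-TM library 1 held both the female-specific Xist, at 291 CPM, and Y-linked reads, at 284, while each other library held one of these at under 3 CPM. Xist was the higher in control library 1 and DAF-TM library 2, and the Y-linked reads in control libraries 2 and 3. Genes of low level were shifted in DAF-TM library 2, where 84.9% of all genes tested under 5 CPM stood above the control mean, against 48.4% in DAF-TM library 1.

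A single interferon stimulated gene passed the test across all genes (2.78% of the list), Ddx58, which rose 1.79-fold, and none fell. The background was 70 genes called higher, 0.373% of those tested, and 7 called lower, 0.0373%. The other 35 members did not pass. At an unadjusted p under 0.05, 11 members were higher and 0 lower, against 3.68% and 2.06% of all genes. That count was 7 higher without control library 1, 5 without control library 3, and 4 higher and 2 lower without DAF-TM library 1. Without control library 2 the count was 9 higher and 0 lower. The shares of all genes in these fits are not given here. The members' median log2 fold change was 0.28 without DAF-TM library 1, against 0.05 for all genes, and 0.43 without DAF-TM library 2, against -0.02. DESeq2 and limma-voom called 0 members in either direction at an adjusted p under 0.05, where over all genes DESeq2 called 0.171% higher and 0% lower and limma-voom 0.234% and 0.0373%. At an unadjusted p under 0.05, DESeq2 had 7 members higher and 0 lower, against 1.88% and 1.93% of all genes, and limma-voom 11 and 0, against 3.85% and 1.89%.

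The fold changes of the members leaned upward. Of the 36 members 28 had a positive log2 fold change, 77.8%, against 53.9% of all genes tested, and their median was 0.34 against 0.03. In 15 members both DAF-TM libraries lay above every control, 41.7% against 11.3% of all genes, and in 0 members did both lie below every control, against 9.02%. The values of single libraries differed. DAF-TM library 1 exceeded the highest control in 27 members, 75% against 24.5% of all genes, and was below the lowest control in 0, against 23.2%. DAF-TM library 2 exceeded the highest control in 18 members, 50% against 33.6%, and lay below the lowest in 10, against 27.3%. Summed over all 36, the members took 1118, 1170 and 1023 CPM in the controls against 1358 in DAF-TM library 1 and 1125 in library 2, so only DAF-TM library 1 lay outside the range of the controls. In bulk RNA, more cells of a type and more RNA per cell cannot be told apart.

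**Figure D1:**
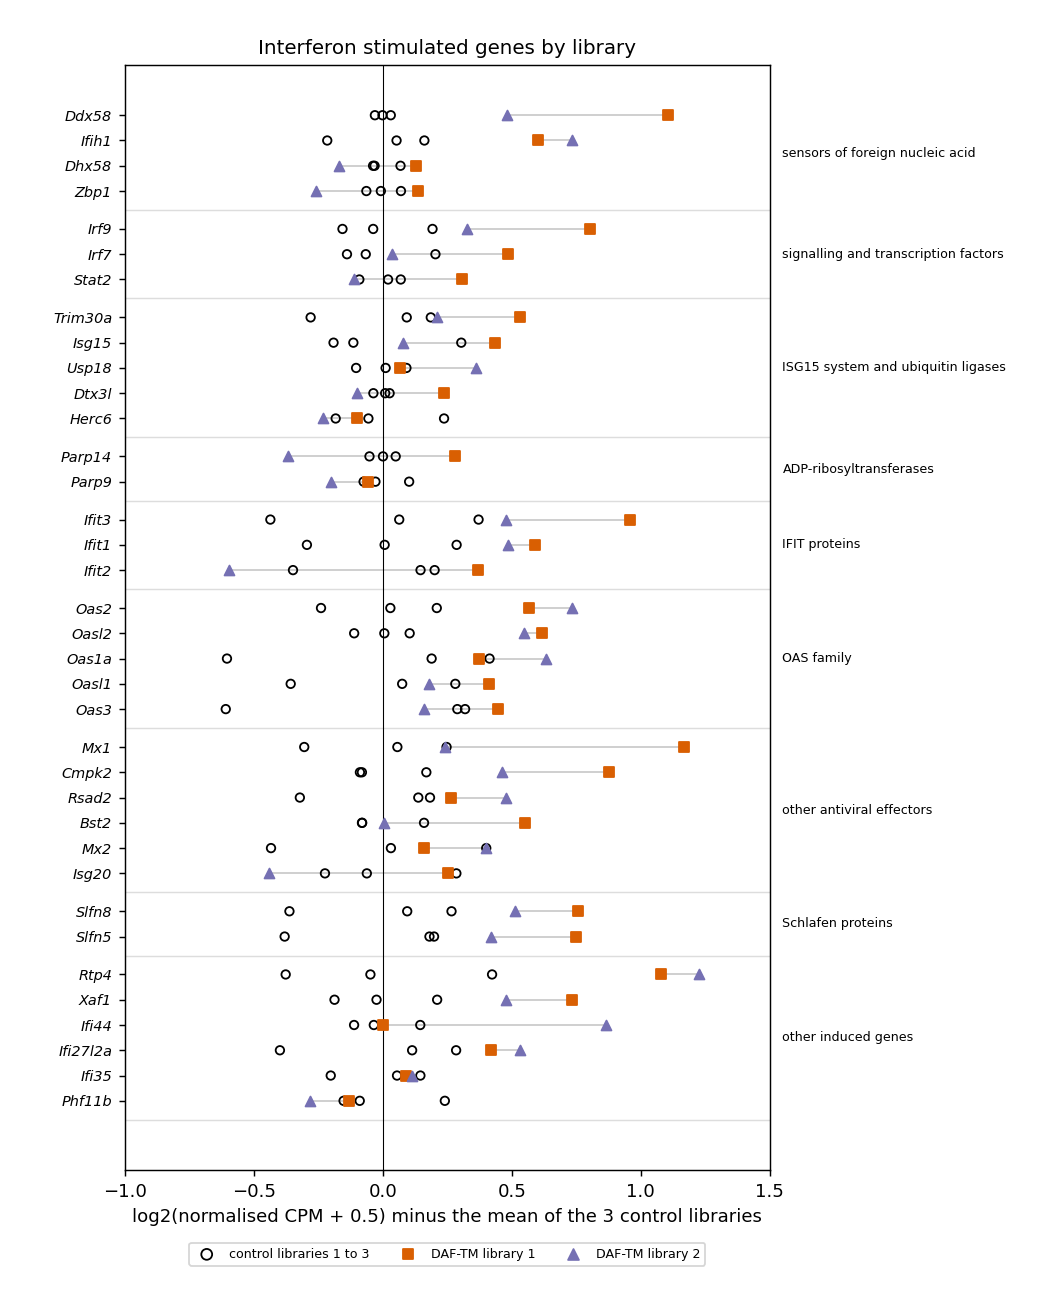
Each of the 36 interferon stimulated genes in each library, as log2 of normalised CPM plus 0.5 minus the mean of the 3 control libraries, grouped by role. Open circles are the controls, squares DAF-TM library 1 and triangles DAF-TM library 2. In 15 genes both DAF-TM symbols lie to the right of every control.

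Among the sensors of foreign nucleic acid, Ddx58 (RIG-I, the sensor of viral RNA ends; chromosome 4, 40203777 to 40239825, GRCm38) stood at 21.0, 21.9 and 21.4 CPM in controls 1 to 3 against 46.7 in DAF-TM library 1 and 30.1 in library 2. The controls were close together, and both DAF-TM libraries lay above them, library 1 by more than library 2. The group values were 21.4 ± 0.468 (SD, n = 3) and 38.4 ± 11.7 (SD, n = 2), a log2 fold change of 0.84 (SE 0.18; edgeR adjusted p = 0.00295). The call was lost without DAF-TM library 1 (log2 0.48, adjusted p = 0.539) and without control library 1 (0.83, adjusted p = 0.074), and with DESeq2 (adjusted p = 0.128) and limma-voom (0.0627). Ifih1 (MDA5, the sensor of long double-stranded RNA) had 4.45, 3.31 and 4.09 CPM in the controls against 6.22 and 6.85 in the DAF-TM libraries, groups that did not overlap (log2 0.73, SE 0.36, adjusted p = 0.846). Dhx58 (LGP2, which modulates these 2 sensors) had 43.7, 47.1 and 43.9 against 49.2 and 39.9 CPM, 1 DAF-TM library above and 1 below all controls (log2 -0.01, SE 0.17). Zbp1, a sensor of Z-form nucleic acid that can start cell death, showed the same split, at 39.2, 35.7 and 37.1 against 41.0 and 31.1 CPM (log2 -0.05, SE 0.18).

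The factors that carry the interferon signal to the nucleus had positive values. Irf9, the part of the complex that recognises the DNA motif, stood at 54.9, 46.7 and 43.0 CPM in the controls against 84.1 and 60.2 in the DAF-TM libraries, without overlap (log2 0.58, SE 0.17, adjusted p = 0.104). It passed without DAF-TM library 2 (log2 0.80, adjusted p = 0.0274) and with upper-quartile factors (0.64, adjusted p = 0.0497). Stat2, its partner in that complex, had 81.9, 73.2 and 79.1 against 96.6 and 72.1 CPM, so DAF-TM library 2 was the lowest of the 5 (log2 0.11, SE 0.17), and without DAF-TM library 1 the value was -0.12. Irf7, the factor that amplifies interferon alpha transcription, had 56.0, 44.1 and 46.4 against 68.3 and 49.8 CPM, and DAF-TM library 2 lay within the controls (log2 0.27, SE 0.17, adjusted p = 0.944). Without DAF-TM library 1 Irf7 stood at 0.02.

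The ISG15 system and the ubiquitin ligases did not pass in any member. Isg15, a ubiquitin-like protein joined to other proteins during the antiviral response, had 3.92, 4.16 and 5.73 CPM in the controls against 6.31 and 4.82 in the DAF-TM libraries, which overlapped (log2 0.28, SE 0.36). Usp18, which removes Isg15 and damps signalling at the receptor, had 13.9, 12.1 and 13.1 against 13.6 and 16.8 CPM (log2 0.23, SE 0.24). Here DAF-TM library 2 was the higher of the pair. Herc6, the mouse ligase for Isg15, had 44.8, 60.1 and 49.0 against 47.4 and 43.3 CPM (log2 -0.18, SE 0.17). Trim30a, a TRIM protein with a restraining role in Toll-like receptor signalling, had 67.8, 72.4 and 52.2 against 92.1 and 73.6 CPM, DAF-TM library 2 only just above the highest control (log2 0.37, SE 0.17, adjusted p = 0.805).

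Dtx3l, Parp9 and Parp14 lie together on chromosome 16, and Dtx3l and Parp9, which form a complex of a ubiquitin ligase and an ADP-ribosyltransferase, overlap by 558 bases in RefSeq. The counting is not stated to use strand, so reads of the overlap cannot be told apart. Parp9 had 97.8, 111 and 101 CPM in the controls against 99.0 and 89.6 in the DAF-TM libraries (log2 -0.13, SE 0.17). Dtx3l had 88.0, 89.1 and 85.3 against 103 and 81.5 CPM (log2 0.08, SE 0.17), and -0.11 without DAF-TM library 1. Parp14 had 73.2, 75.9 and 78.6 against 92.2 and 58.8 CPM (log2 -0.01, SE 0.17). For Dtx3l and Parp14 the DAF-TM libraries lay on opposite sides of all 3 controls, which gave group means near those of the controls.

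**Figure D2:**
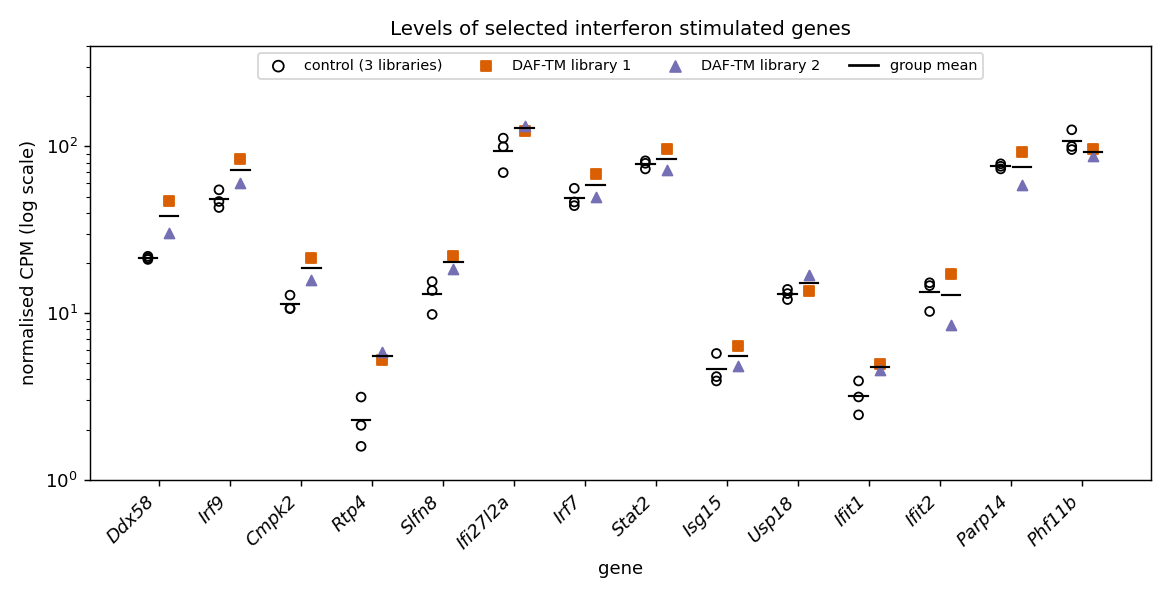
Normalised CPM of 14 interferon stimulated genes on a log axis, with open circles for the 3 control libraries, a square and a triangle for DAF-TM libraries 1 and 2 and bars for group means. Ddx58 shows tightly grouped controls below both DAF-TM libraries, while for Parp14 and Ifit2 the DAF-TM libraries lie on either side of the controls.

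The IFIT genes, whose proteins bind RNA lacking host cap marks, share a cluster on chromosome 19. Ifit3 had 3.50, 1.78 and 2.73 CPM in the controls against 5.50 and 3.81 in the DAF-TM libraries, without overlap (log2 0.81, SE 0.40, adjusted p = 0.858). Ifit1 had 3.92, 3.14 and 2.46 against 4.96 and 4.57 CPM, again without overlap (log2 0.58, SE 0.39, adjusted p = 0.945). Ifit2, beside Ifit3, had 14.6, 15.2 and 10.2 against 17.1 and 8.54 CPM, which placed 1 DAF-TM library above and 1 below the controls (log2 -0.07, SE 0.24). Without DAF-TM library 1 Ifit2 stood at -0.66, and without library 2 at 0.35, neither called.

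All 5 genes of the OAS family, enzymes and relatives that answer double-stranded RNA, had positive log2 fold changes, from 0.28 for Oas3 to 0.70 for Oas2, and none passed. Oas1a, which makes the messenger that activates RNase L, had 6.04, 5.10 and 2.73 CPM in the controls against 5.86 and 7.10 in the DAF-TM libraries, with overlap (log2 0.47, SE 0.35). Oas2 and Oasl2 did not overlap between the groups, and Oas1a, Oas3 and Oasl1 did. The family summed to 30.3, 22.3 and 25.4 CPM in the controls against 36.2 and 34.6 in the DAF-TM libraries. Here the DAF-TM libraries were close to each other. The IFIT genes summed to 15.4 to 22.03 CPM in the controls and to 27.6 and 16.9 in the DAF-TM libraries. Ifit2 held most of that sum, at 17.1 and 8.54 CPM in DAF-TM libraries 1 and 2. Ifit1 had 4.96 and 4.57 CPM there, and Ifit3 5.50 and 3.81.

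Among the other antiviral effectors, Cmpk2 and Rsad2 are neighbours on chromosome 12, with 12664 bases between them. Rsad2 (viperin) makes a chain-terminating nucleotide, and Cmpk2 is a mitochondrial nucleotide kinase. Cmpk2 had 12.8, 10.7 and 10.6 CPM in the controls against 21.3 and 15.8 in the DAF-TM libraries, without overlap (log2 0.70, SE 0.23, adjusted p = 0.292). Rsad2 had 4.66, 4.50 and 3.14 against 4.96 and 5.84 CPM, also without overlap but by a smaller margin (log2 0.38, SE 0.37, adjusted p = 0.949). Mx1, a dynamin-like GTPase against influenza-type viruses that many laboratory strains carry in a defective form, had 1.69, 2.72 and 2.32 against 5.59 and 2.71 CPM (log2 0.87, SE 0.42, adjusted p = 0.834). Its value rested on DAF-TM library 1, since without it the log2 fold change was 0.25. Bst2 (tetherin, which holds budding virus at the membrane) had 12.4, 12.4 and 14.7 against 19.5 and 13.2 CPM (log2 0.31, SE 0.23), and -0.00 without DAF-TM library 1. Isg20, an exonuclease of RNA, had 36.5, 46.6 and 32.6 against 45.6 and 27.99 CPM (log2 -0.07, SE 0.18).

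Rtp4, a chaperone of membrane receptors that also binds viral RNA, had the highest fold change of the list. It stood at 1.59, 2.12 and 3.14 CPM in the controls against 5.23 and 5.84 in the DAF-TM libraries, without overlap (2.45-fold, log2 1.295, SE 0.40, adjusted p = 0.194). The raw counts were 15, 25 and 23 against 58 and 69. Leaving out any library kept the log2 value between 1.09 and 1.58, and none of these fits called it. Slfn8, a Schlafen protein of lymphocytes, had 13.7, 15.5 and 9.82 against 21.9 and 18.4 CPM, without overlap (log2 0.62, SE 0.22, adjusted p = 0.429), and its neighbour Slfn5 had a log2 value of 0.61. Xaf1, a promoter of apoptosis, had 6.78, 8.07 and 6.002 against 11.8 and 9.81 CPM (log2 0.63, SE 0.29, adjusted p = 0.829).

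Ifi27l2a, a small mitochondrial or nuclear membrane protein, was the member with most reads, at 99.5, 112 and 69.6 CPM in the controls against 123 and 133 in the DAF-TM libraries, without overlap (log2 0.45, SE 0.16, adjusted p = 0.507). It passed without control library 2 (log2 0.60, adjusted p = 0.0233). Phf11b, a member of a family of PHD finger genes, had 99.9, 126 and 95.6 against 97.0 and 87.3 CPM (log2 -0.22, SE 0.17), the lowest log2 value of the list. Ifi35, a protein with a leucine zipper, was level, at 75.7, 80.7 and 63.3 against 77.6 and 78.8 CPM (log2 0.09, SE 0.17). Per kilobase of merged exons, the control level ran from 0.484 CPM for Ifih1, 0.517 for Ifi44 and 0.593 for Mx1 to 42.4 for Ifi35, 90.4 for Phf11b and 202 for Ifi27l2a, so the list spans both faint and abundant transcripts. The members not given library by library, Mx2, Oas2, Oas3, Oasl1, Oasl2, Ifi44 and Slfn5, had log2 values from 0.28 to 0.70 and adjusted p from 0.888 to 0.965. Ifit3, Oas1a, Phf11b, Slfn8 and Trim30a have close paralogs, and how reads shared among these were counted is not stated, so their single values are uncertain.

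**Figure D3:**
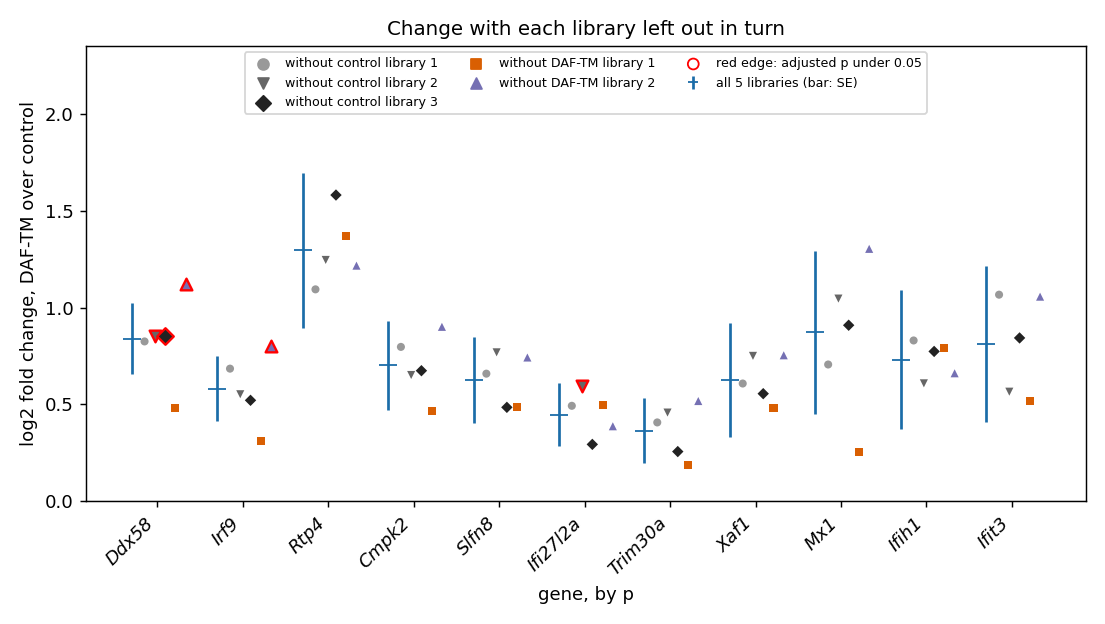
Log2 fold change of the 11 interferon stimulated genes with an unadjusted p under 0.05, with all 5 libraries (bar, SE) and with each library left out in turn. Symbols edged in red passed at an adjusted p under 0.05; for Ddx58 the value without DAF-TM library 1 is 0.48 and is not called, and Rtp4 stays between 1.09 and 1.58.

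The upward lean differed with the level of the gene. The levels were divided at 5 and 30 CPM after the data had been seen. Of 10 members under 5 CPM all 10 were positive, with a median log2 fold change of 0.64, where 73.6% of all genes of that level were positive, with a median of 0.24. Of 12 members from 5 to 30 CPM 11 were positive (median 0.54), against 62.4% of all genes (0.08). Of 14 members over 30 CPM 7 were positive (median 0.03), against 23.7% of all genes (-0.10). Both DAF-TM libraries lay above every control in 6, 6 and 3 members of these levels, against 16.7%, 15.3% and 1.82% of all genes.

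The background for these values differed between the DAF-TM libraries. In DAF-TM library 1 the member medians against the control mean were 0.58, 0.58 and 0.25 at the 3 levels, from low to high, and those of all genes -0.02, 0.04 and -0.01. In DAF-TM library 2 the member medians were 0.48, 0.44 and -0.14, and those of all genes 0.41, 0.11 and -0.19. The member median thus exceeded that of all genes by 0.60, 0.55 and 0.26 in library 1, and by 0.07, 0.33 and 0.05 in library 2. In library 2 the distance was widest at the middle level.

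**Figure D4:**
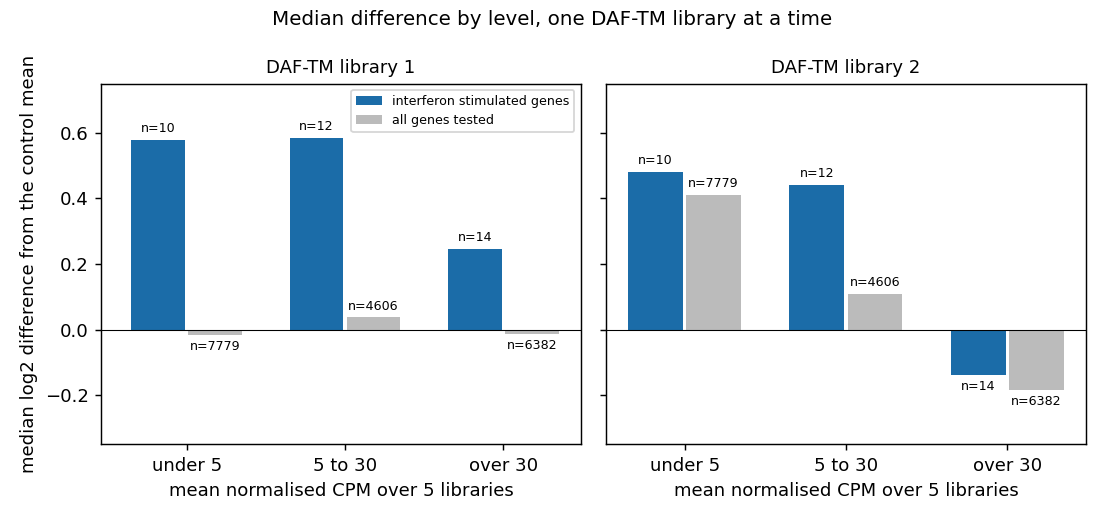
Median log2 difference from the control mean for interferon stimulated genes and for all genes tested, divided by mean normalised CPM, in each DAF-TM library. In library 1 the bars of all genes lie near 0 at each level, whereas in library 2 those of genes under 5 CPM reach 0.41 and those over 30 CPM -0.19.

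**Figure D5:**
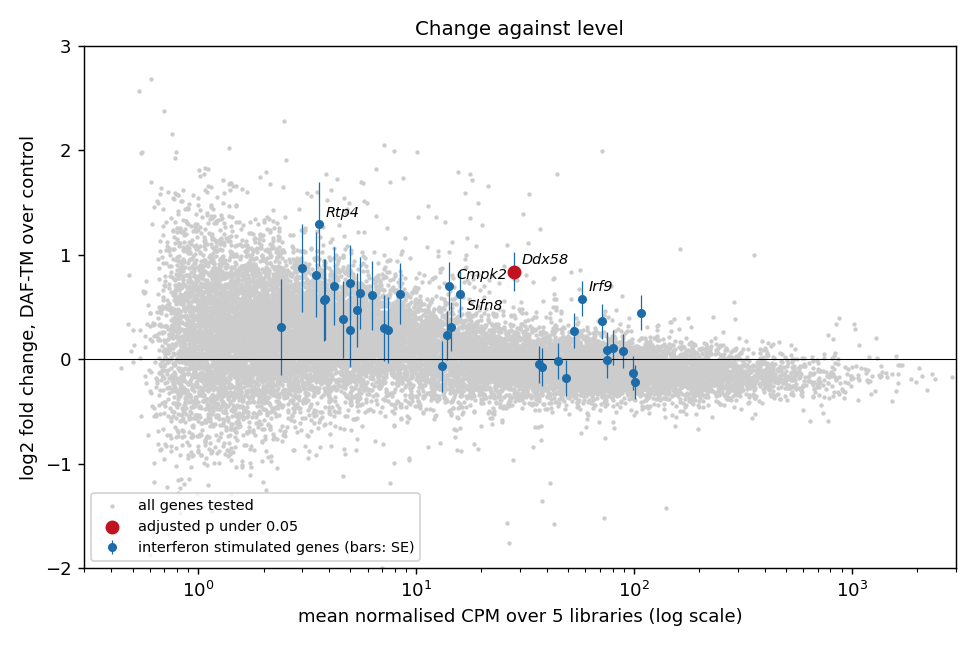
Log2 fold change against mean normalised CPM (log axis) for all genes tested and the 36 interferon stimulated genes with their SE; 20 genes lie outside the axes. Ddx58, the single member called, stands at 0.84, and members over 30 CPM are spread around 0.

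The RefSeq promoter windows (250 bases before to 50 after a gene's start, GRCm38.p6) were searched on both strands for the core of the interferon stimulated response element: GAAA, any 2 bases, then GAAA. Windows were found for 26 members, and 14 of these, 53.8%, held the core, against 3.99% of 27025 genes with a window. Stretches upstream of the start are shown for 8 members that hold the core and range in log2 fold change from Phf11b at -0.22 to Ifit3 at 0.81. They are given 5′ to 3′ on the strand of the gene, with matches in capitals (a match that reads TTTC is the same core on the other strand).
Ifit3 (chr19:34583348-34583441, plus strand): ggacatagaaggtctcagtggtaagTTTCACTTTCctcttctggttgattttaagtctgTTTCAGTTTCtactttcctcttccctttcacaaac
Slfn8 (chr11:83020824-83020883, minus strand): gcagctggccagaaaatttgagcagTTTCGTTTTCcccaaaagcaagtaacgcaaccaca
Ifit1 (chr19:34640760-34640838, plus strand): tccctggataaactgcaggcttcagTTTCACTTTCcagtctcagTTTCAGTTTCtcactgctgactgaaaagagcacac
Oas1a (chr5:120907526-120907570, minus strand): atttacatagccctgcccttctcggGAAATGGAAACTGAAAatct
Rsad2 (chr12:26456538-26456597, minus strand): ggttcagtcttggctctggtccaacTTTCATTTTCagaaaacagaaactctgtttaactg
Bst2 (chr8:71537562-71537627, minus strand): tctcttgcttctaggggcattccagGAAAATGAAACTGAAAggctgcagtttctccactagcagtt
Isg15 (chr4:156200850-156200921, minus strand): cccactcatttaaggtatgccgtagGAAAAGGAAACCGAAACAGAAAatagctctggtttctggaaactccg
Phf11b (chr14:59341346-59341405, minus strand): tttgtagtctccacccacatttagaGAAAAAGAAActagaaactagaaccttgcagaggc

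Isg15 held 3 overlapping copies of the core in 1 run, and Ifit1, Ifit3, Oas1a and Bst2 held 2, in Oas1a and Bst2 overlapping. In Ddx58 the core began 2 bases after the annotated start. The 14 members with the core had a median log2 fold change of 0.43, and 13 of them were positive, 92.9%. The 12 with a window but no core, Irf9, Irf7, Cmpk2, Xaf1 and Ifit2 among them, had a median of 0.29, and 9 were positive, 75%. Among all genes tested with a window, the medians were 0.08 for 504 genes with the core and 0.02 for 13124 without, with 58.9% and 52.6% positive. A window without a match says only that these letters are not in these 300 bases.

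Upstream of the members, the interferon genes themselves were near the floor. All 18 type I interferon genes looked for were below the filter and summed to 39, 55 and 38 raw counts in the 3 controls against 55 in DAF-TM library 1 and 83 in library 2, with at most 16 counts for any gene. Of 10 receptor and proximal signalling genes none passed (6 positive, median log2 fold change 0.08). Ifnar1 had 72.3, 70.8 and 72.8 CPM in the controls against 80.3 and 61.1 in the DAF-TM libraries (log2 -0.03, SE 0.17), and Ifnar2 had 26.5, 22.6 and 23.9 against 33.1 and 22.2 (0.19, SE 0.19). The kinases Jak1 and Tyk2 stood at log2 values of 0.05 and -0.03.

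Of 17 sensors and adaptors upstream of interferon, 1 rose and none fell, Tlr7, the endosomal receptor for single-stranded RNA. It had 3.28, 2.80 and 4.37 CPM in the controls against 12.4 and 7.02 in the DAF-TM libraries (log2 1.496, SE 0.34, adjusted p = 0.00588), and was not called without DAF-TM library 1 (1.02, adjusted p = 0.518), control library 1 (adjusted p = 0.112) or control library 2 (0.086), nor with upper-quartile factors (0.101). DESeq2 (adjusted p = 0.0487) and limma-voom (adjusted p = 0.0346) called Tlr7, as did edgeR without control library 3 (adjusted p = 0.0278). None of 10 inhibitors of interferon signalling passed (3 positive, median -0.04), among them Socs1 at -0.16, and none of 7 other interferon regulatory factors (median 0.07). Irf1, a factor induced by both interferon types, had 73.4, 71.9 and 73.7 CPM against 156 and 66.1, so its value rested on DAF-TM library 1 (log2 0.60, adjusted p = 0.67; -0.15 without that library).

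Relatives of the members and further interferon-induced genes lay nearer to all genes. Of 29 tested paralogs and relatives none passed, with 19 positive and a median of 0.08, and the lowest p was that of Slfn1 (log2 2.02, SE 0.58, adjusted p = 0.0922). Of 33 further interferon-induced genes none passed, 18 were positive and 15 negative, and the median was 0.02, beside 0.34 for the 36 members and 0.03 for all genes. Among these, Lgals9 had a log2 value of 0.55 and Trim12c one of -0.52, both with an adjusted p of 0.312. Eif2ak2, the kinase PKR, stood at -0.22, and Adar, an RNA-editing enzyme, at 0.11. By library, 24 of the 33 further genes stood above the control mean in DAF-TM library 1 and 12 in library 2. These counts were 19 and 15 for the 29 relatives and 32 and 26 for the 36 members, against 49.8% and 54.2% of all genes. They were 15 and 5 for the 17 sensors and adaptors, and 7 and 1 for the 10 inhibitors. For the 7 other interferon regulatory factors they were 6 and 0, and for the 10 receptor and proximal signalling genes 8 and 4. The lists were not matched by level. The 33 further genes summed to 4508 to 4963 CPM in the controls, against 1023 to 1170 for the 36 members. Among members over 30 CPM the median was 0.03. The difference between these lists was not tested.

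Of 75 tested markers, in 7 lists chosen for cells outside the sort gate, 17 rose, 1 fell and 57 did not pass. Of all genes 0.373% were called higher and 0.0373% lower. Positive log2 values were held by 11 of 12 natural killer, 12 of 14 macrophage, 10 of 11 T cell and 9 of 10 conventional dendritic cell markers. So were 7 of 9 plasmacytoid dendritic cell, 6 of 9 plasma cell and 3 of 10 neutrophil markers, against 53.9% of all genes. Of 12 natural killer cell markers 7 rose (58.3%; median log2 fold change 1.53), Gzma, Ccl5, Nkg7, Klrd1, Klrk1, Klrb1c and Ncr1. The list summed to 40.8 to 79.5 CPM in the controls and to 80.6 and 157 in the DAF-TM libraries. Of 14 macrophage and monocyte markers 4 rose, Vcam1, Slc40a1, Csf1r and C1qb (107 to 171 CPM against 135 and 222). Of 9 tested plasmacytoid dendritic cell markers Siglech and Ly6d rose (962 to 1105 CPM against 970 and 1245); Ly6d, Spib, Tcf4 and Runx2 are also transcribed in B cells, as is Ccr7 of the next list. Siglech itself had 2.65, 2.89 and 3.55 CPM in the controls against 10.9 and 8.54 in the DAF-TM libraries, a log2 fold change of 1.69. Of 10 conventional dendritic cell markers Ccr7 rose (87.6 to 91.8 CPM against 105 and 123), of 11 T cell markers Cd3d and Tcf7 (286 to 315 against 282 and 290), and of 9 plasma cell markers Prdm1 (3910 to 6064 against 3810 and 4992). Among the 9 plasma cell markers 8 reached 10 CPM on average in the controls, so that list may not be limited to cells outside the gate. Of 10 neutrophil markers Chi3l3 fell (91.5 to 287 CPM against 30.5 and 77.0). Of these 18 called markers, 1, Ccr7, was still called without DAF-TM library 1 (the others at adjusted p from 0.0652 to 0.595), and 16 were without DAF-TM library 2. Without control library 1, 2 or 3, 9, 14 and 12 were called. DESeq2 called 9 of the 18 (8 lost at adjusted p from 0.0543 to 0.505, 1 with none given), limma-voom 13 and upper-quartile factors 9. The summed level of the macrophage, plasmacytoid dendritic cell and T cell lists in DAF-TM library 2 lay within the range of the controls. Such sums weigh abundant markers most, and 3, 4 and 1 markers of these lists reached 10 CPM on average in the controls. By marker, 11 of 14, 7 of 9 and 9 of 11 stood above the control mean in that library (medians 0.66, 0.61 and 0.85). Of all genes tested 54.2% did so (median 0.05), and of those under 5 CPM 84.9% (0.41). None of these lists held a marker at 0 counts in any library. Of the 14 germinal centre B cell markers 13 had negative log2 values (median -0.18), none passed, and the list took 12975 to 15552 CPM in the controls against 11945 and 13031 in the DAF-TM libraries. All but Pax5 stood over 30 CPM, a level at which 4868 of 6382 genes tested were negative (median -0.10). The part of these cells, of the mixed sex of DAF-TM library 1 and of the shift of low-level genes in DAF-TM library 2 in the values of the interferon stimulated genes was not tested.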

How the data were processed

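RNA of sorted germinal centre B cells (10 ng per sample, oligo-dT SMART-Seq v4) was sequenced as single-end reads of 100 nt, with 12 libraries on 1 lane, per the labels' protocols. The deposited table holds raw counts for each gene symbol, made with bcl2fastq, HISAT2 and featureCounts per the submitters' processing notes and with mm10 per the file headers. No source used here names the annotation, the strand setting or the treatment of multi-mapped reads.

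Counts of the 5 distinct libraries were tested with edgeR 4.0.16 (R 4.3.3): filterByExpr, TMM factors, robust glmQLFit, two-sided glmQLFTest, Benjamini-Hochberg over 18767 genes, threshold 0.05. The fit had 3 residual degrees of freedom against a median of 1153 prior ones, so p-values rest mainly on the spread pooled over genes and refer to libraries. Sex-linked reads separate control library 1 from the other controls and the DAF-TM libraries from each other; whether control libraries 2 and 3 came from separate mice is not stated, and their spread may be technical. The procedure was also run on simulated counts drawn with the spread fitted here. These lacked the shift of low-level genes seen in DAF-TM library 2, and no result above rests on that run. Library differences used log2 of normalised CPM plus 0.5. Alternatives were RLE and upper-quartile factors, other filters, DESeq2 1.42.0, limma-voom (limma 3.58.1), no robust estimation, a replicate block and leaving out each library. Lengths came from GENCODE M21, and positions and promoters from RefSeq GRCm38.p6. The members and lists were chosen with earlier results of these data known. Printed library by library were called members, the 8 of lowest p not called, the 8 of highest CPM, a fixed set, and those against the majority in sign.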

Additional observations from a re-analysis of the deposited data

How the results depend on the processing

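The count of members called higher was 1 (Ddx58) with RLE factors, with other filters, without robust estimation and with the replicate block, 2 with upper-quartile factors (Irf9 added), and 0 with DESeq2 and limma-voom. Leaving out 1 library gave 0 to 2 members, 0 without control library 1 or DAF-TM library 1. A DAF-TM library left alone was assumed to vary like the controls. No member was called lower under any alternative run. The members' median ran from 0.28 to 0.46 without 1 library and from 0.32 to 0.41 otherwise. Of all genes, the 70 called higher became 39 with upper-quartile factors, 32 with DESeq2 and 44 with limma-voom, and 12 to 107 without 1 library. The 7 called lower became 11 with RLE factors, without a filter and without robust estimation, 0 with upper-quartile factors and DESeq2, and 2 to 16 without 1 library. With the replicate number as a block, 45 genes were higher and 16 lower; the numbers are shared by only 2 pairs, and the labels name no litter or day, so they do not pair the libraries. With that block 4 members were higher and 0 lower at an unadjusted p under 0.05, and the share of all genes is not given here. Tlr7 was not called with it (log2 1.62, adjusted p = 0.0952), and 10 of the 18 called markers of other cells were called. The causes were not tested. Of the named interferon genes, 12 changed sign under some alternative, and none of the values of these was called. With upper-quartile factors Dhx58 stood at 0.0538, Parp14 at 0.048, Zbp1 at 0.0147, Ifnar1 at 0.0371 and Tyk2 at 0.033, and with the replicate block Tyk2 at 0.0542. Over the fits without 1 library the log2 value of Bst2 ran from -0.000276 to 0.57, of Dhx58 from -0.18 to 0.13, of Dtx3l from -0.11 to 0.24, of Ifit2 from -0.66 to 0.35, of Isg20 from -0.48 to 0.24 and of Parp14 from -0.38 to 0.28. That of Stat2 ran from -0.12 to 0.31, of Zbp1 from -0.27 to 0.14, of Ifnar1 from -0.24 to 0.16, of Ifnar2 from -0.13 to 0.45, of Jak1 from -0.16 to 0.22 and of Tyk2 from -0.26 to 0.17. Counts of members under 5 CPM ran from 15 to 81 per library, which limits the precision of their changes.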
